A study of Mus musculus with 6 samples.

Results

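Solute carriers are membrane proteins that move amino acids, sugars, ions, vitamins, nucleosides and metabolites across the cell surface and the membranes of organelles. The genes described here are the protein-coding genes of the Slc families with an "a" in their symbol that mouse F9 cells expressed at a mean of at least 20 normalised reads over the 6 libraries, without the glucose transporter genes Slc2a1 and Slc2a3. This rule kept 192 genes under 191 symbols, Slc38a9 being listed under a pair of identifiers, of 320 such genes in the table. Of the other 128 genes, 10 had no read in any library. The 192 genes belong to 46 families and are part of 12332 genes tested and 25904 genes deposited. A normalised read is 1 read per 10000000 reads counted in genes of that library. The genes were chosen by their measured levels, so the mean level of a gene is given as a description. Just inside the minimum were Slc25a21 at 20.5, Slc39a8 at 21.7 and Slc46a3 at 22.4 normalised reads. Just outside it were Slc16a11 at 19.6, Slc9a7 at 19.6 and Slc6a5 at 19.5. The symbol rule also took in Slc7a6os, Slc9a3r1, Slc9a3r2 and Slc4a1ap, whose products are not carriers themselves.

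F9 is a mouse teratocarcinoma line of embryonal carcinoma cells that takes on endoderm-like features when it is given retinoic acid (RA). A line carrying a short hairpin RNA named shCtbp2, against the transcriptional corepressor Ctbp2, and a line carrying shRxr, against a nuclear receptor of retinoids (Rxr) that acts as the dimer partner of the RA receptors, were set beside a control line carrying shGFP. Each line was sequenced once with 1 µM all-trans RA given 48 hours before harvest and once untreated (UT), all in medium with charcoal-stripped serum, which gave 6 groups of 1 library each. Between 9955808 reads (shRxr_RA) and 13322506 reads (shGFP_RA) were counted in genes. The labels name no replicate culture, no clone and no receptor gene for shRxr. Where a p-value is given for RA, the 3 lines stood in as replicates of the treatment. For the effect of a knock-down line, the 2 treatments stood in as replicates of the line. Such a p-value rests on how unequally the lines of these 6 libraries responded to RA, with the variance moderated over all genes. It does not measure the spread between replicate cultures. All 8 embryonal carcinoma markers had reads in every library, summing to 47619, 36821 and 20529 normalised reads in RA-treated shCtbp2, shRxr and shGFP cells, against 51075, 51932 and 51390 in the same lines untreated. In shCtbp2 cells the sum hid opposite moves. Pou5f1 stood there at 26185 with RA against 18524 untreated, and Dppa5a at 8488 against 4940. Nanog, Tdgf1, Utf1, Lin28a, Zfp42 and Sox2 were lower with RA in that line, such as Zfp42 at 2129 against 8730. The hairpin targets checked the labels: Ctbp2 stood at 55.4 normalised reads in shCtbp2_RA against 701 in shGFP_RA and at 210.1 in shCtbp2_UT against 1811 in shGFP_UT, and Rxra at 82.4 in shRxr_RA against 805 in shGFP_RA and at 73.7 in shRxr_UT against 520.3 in shGFP_UT.

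As background, carriers work as cotransporters that use the sodium or proton gradient, as exchangers that swap one solute for another, and as uniporters. Proliferating embryonal cells are known for a high demand for glutamine, essential amino acids and phosphate. Many plasma membrane amino acid exchangers of the Slc7 family need a heavy chain, the Slc3a2 product, to reach the cell surface. Most members of the Slc25 family sit in the inner mitochondrial membrane and link the matrix with the cytosol.

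The 192 genes together took 1.42, 1.28 and 1.39% of all reads in RA-treated shCtbp2, shRxr and shGFP cells, against 1.37, 1.32 and 1.33% in the same lines untreated. The 10 highest genes of each library held between 41.03% (shRxr_RA) and 47.9% (shCtbp2_RA) of those reads. Per kilobase of the longest annotated transcript, the highest mean level was that of Slc7a5, the large neutral amino acid exchanger, at 3173 normalised reads per kilobase. On the same per-kilobase scale it was followed by Slc25a39, a mitochondrial carrier, at 2429.8, by the ADP/ATP exchangers Slc25a5 at 2348 and Slc25a4 at 2226, and by the heavy chain Slc3a2 at 1903. Next came Slc1a5, which takes up glutamine, at 1688, the mitochondrial phosphate carrier Slc25a3 at 1595, the arginine and lysine carrier Slc7a3 at 1529, the phosphate carrier Slc20a1 at 1296 and the arginine and lysine carrier Slc7a1 at 873 normalised reads per kilobase. Carriers of amino acids, mitochondrial carriers and a phosphate carrier thus held the 10 highest places.

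Over the 3 lines, RA changed 40 of the 192 genes in the limma fit, with Benjamini-Hochberg adjusted p under 0.05 over all 12332 genes. Of these, 27 rose, which is 14.1% of the carrier genes against 10.8% of all genes tested, and 13 fell, which is 6.77% against 4.63% of all genes. The median limma log2 change was 0.20 for the carrier genes and 0.07 for all genes tested. After a correction for GC content and transcript length these medians were 0.08 and 0.06, so little of the gap was left. The genes that rose summed to 23176, 19213 and 26758 normalised reads in RA-treated shCtbp2, shRxr and shGFP cells, against 7554, 10362 and 8423 untreated. The genes that fell summed to 8273, 9297 and 7389 normalised reads in RA, against 23032, 17924 and 21567 untreated. In all 40 genes the direction was the same in each line, and the 3 RA levels did not overlap the 3 untreated levels. Levels failed to overlap in 54 carrier genes higher with RA, 28.1% against 24.1% of all genes, and in 30 lower with RA, 15.6% against 13.9% of all genes. By either count the share of carrier genes lay within a few percentage points of that of all genes, so the counts set the carriers little apart. Of the 10 genes that passed the minimum level through their RA libraries alone, 7 were among those that rose, such as Slc17a7, Slc25a21, Slc41a3, Slc4a9, Slc6a17 and Slc7a8; such genes had to be higher with RA to be counted at all.

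The counts depended on which libraries were fitted. Without either shGFP library 6 genes rose and 3 fell. Without shCtbp2_RA 11 rose and 7 fell, and without shCtbp2_UT 12 rose and 7 fell. Without shRxr_RA 32 rose and 25 fell, and without shRxr_UT 33 rose and 25 fell. Scaling by median of ratios gave 26 higher and 21 lower, so that 55.3% of calls were higher against 67.5% in the fit as deposited. Markers of endoderm moved with RA as well: 6 of them summed to 12095, 7944 and 16472 normalised reads in RA-treated shCtbp2, shRxr and shGFP cells, against 4918, 3058 and 3432 untreated, and their part in the carrier changes was not tested. In bulk RNA, fewer cells that express a gene and less RNA per cell cannot be told apart. Fibroblast markers summed to at most 143 normalised reads (shCtbp2_UT), of which Thy1 made up 131, with Dcn and Col3a1 at or near 0. Of 3 blood cell markers Ptprc and Hba-a1 were also at or near 0, while Cd68 of macrophages stood between 69.5 and 131 normalised reads. Neuron markers summed to 1265, 945 and 543 normalised reads in RA-treated shCtbp2, shRxr and shGFP cells, against 1072, 1471 and 1026 untreated. Most of these were reads of Tubb3, while Rbfox3 and Syp each stood between 7.44 and 21.8.

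**Figure D1:**
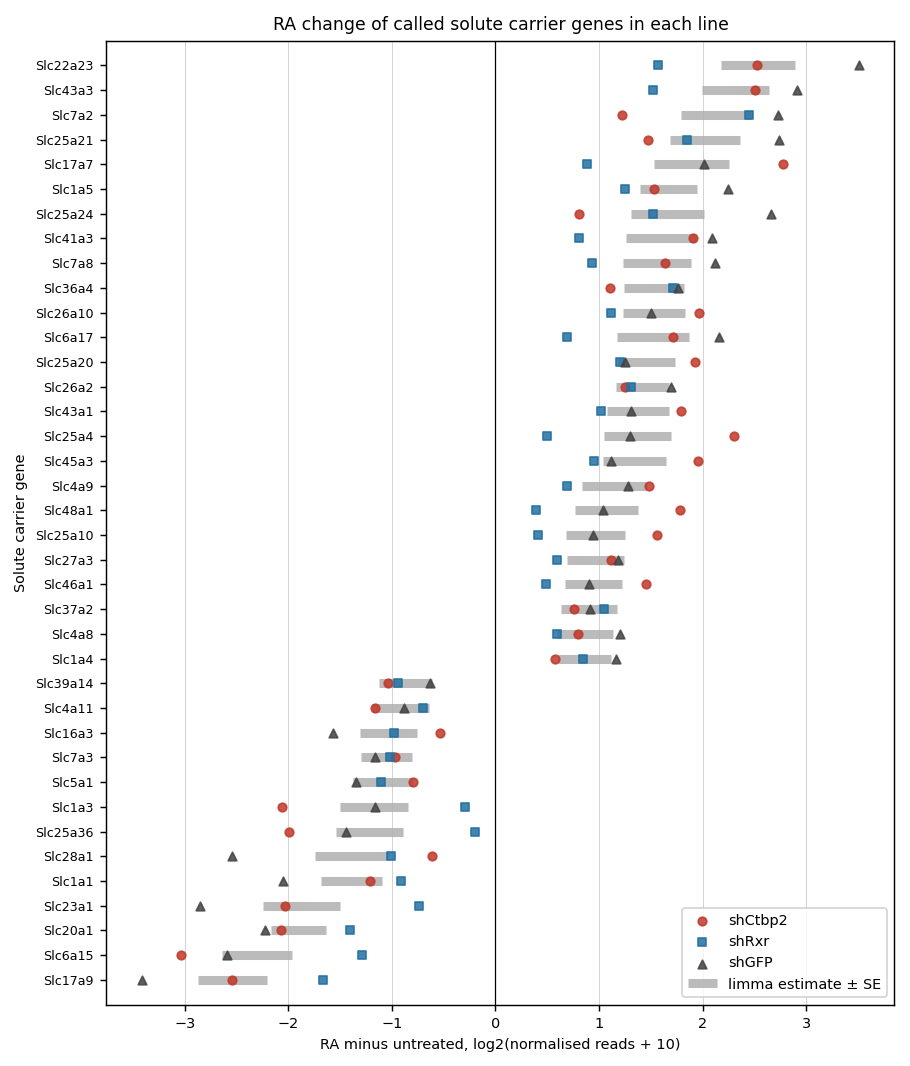
RA change of 38 of the 40 carrier genes that passed the limma test. Points give the RA minus untreated difference in log2(normalised reads + 10) for shCtbp2 (red circles), shRxr (blue squares) and shGFP (grey triangles), each from 1 library pair, and grey bars the limma estimate ± SE. Slc22a23 lies farthest right and Slc17a9 farthest left, and the shRxr point is nearest to 0 in 18 of the 25 genes shown that rose and 8 of the 13 that fell.

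Slc22a23 (ENSMUSG00000038267, mm9 chromosome 13, 34271027 to 34437051), an organic ion carrier family member whose substrate is not established, had 95.02, 147 and 342 normalised reads in RA-treated shCtbp2, shRxr and shGFP cells, against 8.27, 42.7 and 20.9 in the same lines untreated. Sets of 3 levels are given throughout in the order shCtbp2, shRxr and shGFP. Its RA levels lay above every untreated level, and the shRxr line was the highest untreated. The RA level was 11.5-fold (95% counting interval 5.98 to 24.7) higher in shCtbp2, 3.44-fold (95% counting interval 2.48 to 4.82) higher in shRxr and 16.3-fold (95% counting interval 10.99 to 25.2) higher in shGFP cells. The limma log2 change of Slc22a23 was 2.53, SE 0.36, adjusted p 0.00055. Slc43a3 (ENSMUSG00000027074, mm9 chromosome 2, 84776736 to 84798666), a nucleobase carrier placed by family among the amino acid carriers, had 174, 154 and 302 normalised reads in RA, against 22.3, 46.9 and 31.4 untreated. All RA libraries were above all untreated ones, by a limma log2 change of 2.32, SE 0.32, adjusted p 0.0005. Slc22a23 and Slc43a3 rose under every one of the 17 alternative settings of the fit.

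On the falling side, the largest change was that of Slc17a9 (ENSMUSG00000023393, mm9 chromosome 2, 180459968 to 180476985), which loads nucleotides such as ATP into vesicles. Slc17a9 had 93.04, 85.4 and 29.3 normalised reads in RA-treated shCtbp2, shRxr and shGFP cells, against 592, 292 and 408 in the same lines untreated. The RA levels were all below the untreated ones and lowest in shGFP, where the level was 13.9-fold (95% counting interval 10.04 to 19.8) lower with RA. The limma log2 change was -2.54, SE 0.33, adjusted p 0.00035. Slc6a15, a sodium-coupled carrier of branched-chain amino acids and proline, had 50.5, 106 and 45.04 normalised reads in RA, against 486, 275 and 322 untreated, and its limma log2 change was -2.31, SE 0.34, adjusted p 0.00073. The fall of Slc6a15 was largest in shCtbp2 and smallest in shRxr cells, with no overlap between treatments. Slc20a1 (ENSMUSG00000027397, mm9 chromosome 2, 129024500 to 129037352), a sodium-coupled phosphate carrier of the cell surface, had 2075, 1989 and 1347 normalised reads in RA-treated shCtbp2, shRxr and shGFP cells, against 8751, 5283 and 6331 in the same lines untreated. It was 4.22-fold (95% counting interval 4.02 to 4.42), 2.66-fold (95% counting interval 2.53 to 2.80) and 4.70-fold (95% counting interval 4.47 to 4.95) lower with RA in shCtbp2, shRxr and shGFP cells. The limma log2 change of Slc20a1 was -1.90, SE 0.27, adjusted p 0.00055. Slc17a9, Slc6a15 and Slc20a1 are the genes that fell under all 17 alternatives.

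The windows of 250 bases upstream of the annotated start are shown for the genes with the largest RA changes among those with a mean of at least 100 and a matched window, a pair that rose (Slc22a23 and Slc25a24) and a pair that fell (Slc20a1 and Slc1a1), with RefSeq sequence of GRCm38.p6. They lie at chr13:34345219-34345468, minus strand, for Slc22a23; chr3:109122899-109123148, plus strand, for Slc25a24; chr2:129198523-129198772, plus strand, for Slc20a1; and chr19:28834885-28835134, plus strand, for Slc1a1. Each is written 5′ to 3′ along the gene. Capitals mark GGGCGG or its reverse complement CCGCCC (the GC box), AGGTCA or TGACCT (the half-site that RA receptors and other nuclear receptors bind) and TATAAA or TTTATA (the TATA box).
Slc22a23: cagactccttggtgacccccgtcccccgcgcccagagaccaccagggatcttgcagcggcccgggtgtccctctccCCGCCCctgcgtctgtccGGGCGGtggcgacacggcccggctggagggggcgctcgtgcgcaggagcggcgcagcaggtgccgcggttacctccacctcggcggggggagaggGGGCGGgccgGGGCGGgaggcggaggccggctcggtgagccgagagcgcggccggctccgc
Slc25a24: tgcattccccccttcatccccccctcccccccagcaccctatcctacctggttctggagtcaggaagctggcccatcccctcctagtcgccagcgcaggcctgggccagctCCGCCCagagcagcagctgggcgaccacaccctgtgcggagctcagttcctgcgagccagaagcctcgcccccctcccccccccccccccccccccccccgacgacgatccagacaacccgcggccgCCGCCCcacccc
Slc20a1: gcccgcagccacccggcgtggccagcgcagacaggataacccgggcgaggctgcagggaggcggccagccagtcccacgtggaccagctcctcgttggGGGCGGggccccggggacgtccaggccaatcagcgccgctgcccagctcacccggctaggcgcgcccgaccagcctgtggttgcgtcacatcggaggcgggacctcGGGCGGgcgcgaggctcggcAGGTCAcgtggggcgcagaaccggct
Slc1a1: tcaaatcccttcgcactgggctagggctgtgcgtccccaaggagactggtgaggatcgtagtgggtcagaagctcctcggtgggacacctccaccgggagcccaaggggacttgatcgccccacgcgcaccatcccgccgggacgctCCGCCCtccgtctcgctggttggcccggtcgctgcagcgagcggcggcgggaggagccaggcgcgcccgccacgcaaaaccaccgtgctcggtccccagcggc
The Slc22a23 window held 4 GC boxes and the Slc25a24 window 2, with no half-site in either. The Slc20a1 window held 2 GC boxes and 1 half-site, and the Slc1a1 window 1 GC box. No window of these 4 held a TATA box.

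A RefSeq window was matched by symbol for 140 of the 191 symbols, 19 that rose and 7 that fell among them. The paired half-site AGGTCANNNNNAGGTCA, searched on both strands, was in 0 of the 140 windows and in 0.0074% of 27025 windows of all genes. Here all genes means every gene with a window, whether or not F9 cells expressed it. The carrier genes were chosen by level, so the shares in this paragraph compare unlike sets. A single AGGTCA half-site was in 13 windows, 9.29% of the carrier genes against 13.8% of all genes, and it was in 0 of 19 genes that rose and 1 of 7 that fell. The GC box was in 91 windows, 65% against 32.9% of all genes, and in 57.9% of windows of genes that rose and 85.7% of those that fell. The TATA box was in 5.71% of carrier windows against 13% of all windows. The median GC content of the carrier windows was 61.8% against 52% for all genes. The core TGATGNAAT of the amino acid response element was in 0 of 140 windows and 0.825% of all windows. GC boxes were common in windows of genes that rose and of genes that fell. These are matches of letters in one window and say nothing of binding.

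Amino acid carriers of the plasma membrane and lysosome were the largest group, with 38 genes (Slc7a6os counted by its symbol), of which 8 rose, 4 fell and 26 did not pass the test. Of all genes tested 10.8% rose and 4.63% fell, and the counts of every substrate group stand beside those shares. No group was tested as a set. Related carriers moved in opposite directions. In the Slc1 family the neutral amino acid exchangers Slc1a4 and Slc1a5 rose and the glutamate carriers Slc1a1 and Slc1a3 fell. Slc1a6, another glutamate carrier, did not pass the test (limma log2 change 0.68, adjusted p 0.16). Slc1a5, a glutamine carrier, had 6732, 5398 and 9679.9 normalised reads in RA-treated shCtbp2, shRxr and shGFP cells, against 2328, 2265 and 2032 in the same lines untreated. It was the highest in shGFP_RA, 4.76-fold (95% counting interval 4.56 to 4.97) over shGFP_UT, with a limma log2 change of 1.67, SE 0.27, adjusted p 0.0015. Slc1a4, which carries alanine, serine and cysteine, had 1654, 1488 and 2107 normalised reads in RA, against 1109, 826 and 933 untreated, and a limma log2 change of 0.86 (adjusted p 0.04). Slc1a1, a neuronal and epithelial glutamate carrier, had 327, 199 and 111 normalised reads in RA, against 772, 383 and 491 untreated, and changed by -1.39 (adjusted p 0.0065); reads of the overlapping Gm5822 cannot be told apart from it. Slc1a3, the glial glutamate carrier, had 97.00, 243 and 272 normalised reads in RA, against 437, 301 and 620.2 untreated, and changed by -1.17 (adjusted p 0.029). In shRxr cells the change of Slc1a3 was only -0.30 on the log2 scale.

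Among the carriers of arginine and lysine, Slc7a2 rose and Slc7a3 fell. Slc7a2 had 61.4, 222 and 206 normalised reads in RA-treated shCtbp2, shRxr and shGFP cells, against 20.7, 32.6 and 22.6 in the same lines untreated, and its limma log2 change was 2.13, SE 0.34, adjusted p 0.0011. Its RA level was lowest in shCtbp2 cells, though still above every untreated library. Slc7a3 had 2928, 2619 and 2657 normalised reads in RA-treated shCtbp2, shRxr and shGFP cells, against 5761, 5323 and 5948 in the same lines untreated, and its limma log2 change was -1.05, SE 0.25, adjusted p 0.013. Its levels lay close together among the lines within each treatment and did not overlap between treatments. The widely expressed Slc7a1 had 4796, 6258 and 6186 normalised reads in RA, against 7760.3, 6291 and 6302 untreated, and did not pass the test (limma log2 change -0.24, adjusted p 0.57). Over the 6 libraries Slc7a1 and Slc7a3 lay far above Slc7a2 per kilobase, at means of 873, 1529 and 11.9 normalised reads per kilobase.

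The heavy chain Slc3a2 had 7483, 4701 and 5461 normalised reads in RA-treated shCtbp2, shRxr and shGFP cells, against 4981, 4782 and 4709 in the same lines untreated, and did not pass the test (limma log2 change 0.26, adjusted p 0.53). Its partner Slc7a5 had 15797, 9667 and 11741 normalised reads in RA, against 10106, 9752 and 9886 untreated, and did not pass it either (limma log2 change 0.29, adjusted p 0.48). In both genes shCtbp2_RA was the highest library and the other 5 lay close together (after a correction for GC content and transcript length the log2 change with RA in shCtbp2 cells was 0.05 for Slc3a2 and -0.06 for Slc7a5), and Slc7a5 alone made up 11.1% of the carrier reads there against 7.37 to 8.46% in the other libraries. Another partner, Slc7a8, a neutral amino acid exchanger of epithelia, had 28.7, 44.2 and 117 normalised reads in RA, against 2.48, 18.4 and 19.3 untreated, and a limma log2 change of 1.56, SE 0.32, adjusted p 0.0062. Slc7a8 was the only light chain among those named that passed the test as higher with RA. It was also among the genes that passed the minimum level through their RA libraries alone. The light chain of leucine and arginine exchange Slc7a6 had 618, 777 and 1217 normalised reads in RA, against 397, 650.3 and 547 untreated (adjusted p 0.11). It was higher with RA in each line. After the correction for GC content and transcript length Slc7a6 passed the test (limma log2 change 0.75, adjusted p 0.029). The related Slc7a7, which overlaps Oxa1l, had 971, 634 and 638 normalised reads in RA, against 850.3, 737 and 874 untreated (adjusted p 0.72). Slc7a11, the cystine and glutamate exchanger, had 190.0, 614 and 293 normalised reads in RA, against 663, 504 and 548 untreated (limma log2 change -0.78, adjusted p 0.14), and its shRxr library was higher with RA than without.

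Of the other amino acid carriers that rose, Slc36a4, a proline and tryptophan carrier, had 72.3, 199 and 212 normalised reads in RA, against 28.1, 53.6 and 55.6 untreated (limma log2 change 1.53). Slc43a1, a carrier of leucine and other large neutral amino acids, had 76.2, 110.5 and 78.8 normalised reads in RA, against 14.9, 49.4 and 25.8 untreated (limma log2 change 1.38). Slc6a17, a vesicular neutral amino acid carrier of neurons, had 22.8, 29.1 and 78.1 normalised reads in RA, against 0, 14.2 and 9.66 untreated (limma log2 change 1.52). Of the 3, each had its RA levels above all of its untreated levels. Slc38a2, a sodium-coupled glutamine and alanine carrier, did not pass the test (limma log2 change -0.73, adjusted p 0.10). Slc38a2 had 2223, 4562 and 4275 normalised reads in RA, against 5915, 5379 and 6259 untreated. Its level was lower with RA in each line with no overlap between treatments, and its shCtbp2_RA library was the lowest of the 6.

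**Figure D2:**
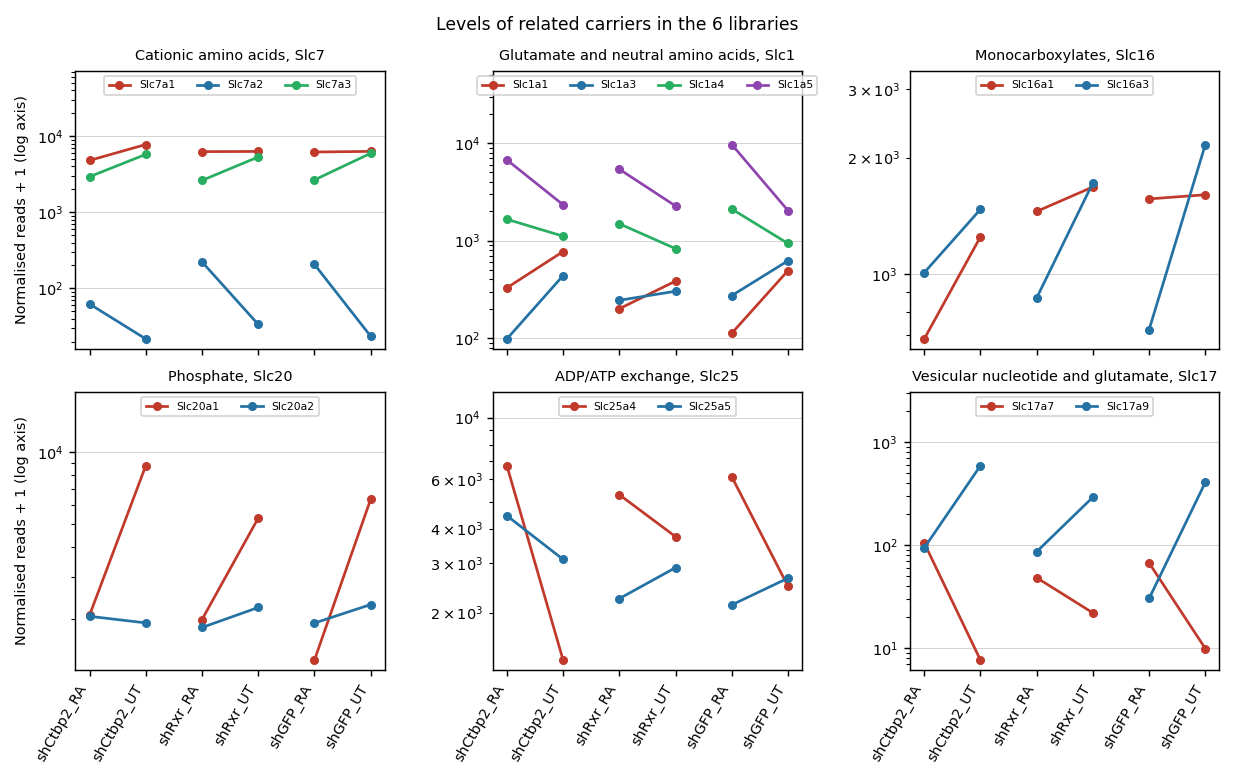
Levels of related carriers in the 6 libraries, as normalised reads + 1 on a log axis, with a line joining the RA and untreated library of each line. Members of a family sit at different levels and slope in opposite directions, such as Slc7a2 against Slc7a3, Slc1a5 against Slc1a1, and Slc17a7 against Slc17a9, while Slc20a2 and Slc7a1 stay nearly flat in most lines.

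Among the 35 genes of the Slc25 family, grouped here as mitochondrial carriers, 5 rose, 1 fell and 29 did not pass the test. Of all genes tested 10.8% rose and 4.63% fell. Slc25a4, an ADP/ATP exchanger known from heart and muscle, had 6719.6, 5288 and 6130.2 normalised reads in RA-treated shCtbp2, shRxr and shGFP cells, against 1349.9, 3740.4 and 2483 in the same lines untreated. The limma log2 change was 1.37, SE 0.32, adjusted p 0.012, and the difference was smallest in shRxr cells. Its close paralog Slc25a5 had 4446, 2243 and 2129 normalised reads in RA-treated shCtbp2, shRxr and shGFP cells, against 3099, 2896 and 2655 in the same lines untreated, and did not pass the test (limma log2 change -0.06, adjusted p 0.91). For Slc25a4 the RA levels lay above all untreated ones, while the treatments overlapped for Slc25a5. Both genes share long stretches of sequence, so the split of reads between them is uncertain. Slc25a20, which brings acylcarnitines into the matrix for fatty acid oxidation, had 1219, 813 and 569 normalised reads in RA, against 313, 348 and 234 untreated (limma log2 change 1.46, adjusted p 0.0032). Slc25a24, a calcium-regulated carrier of ATP-Mg and phosphate, had 81.2, 153 and 298 normalised reads in RA, against 42.2, 46.9 and 38.7 untreated (limma log2 change 1.66, adjusted p 0.0066). Slc25a10, the dicarboxylate carrier, had 909.6, 489 and 671 normalised reads in RA, against 303, 366 and 346 untreated (limma log2 change 0.97). The oxodicarboxylate carrier Slc25a21 had 17.8, 29.1 and 72.8 normalised reads in RA, against 0, 0.837 and 2.42 untreated, with reads that may belong to the overlapping Pax9. Slc25a36, a pyrimidine nucleotide carrier that overlaps Gm16185, fell, with 674, 2330.3 and 1095 normalised reads in RA, against 2716, 2677 and 3005 untreated (limma log2 change -1.21, adjusted p 0.023), and in shRxr cells it differed little between treatments.

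Of 19 genes grouped as bicarbonate, proton and anion exchangers 5 rose, 1 fell and 13 did not pass the test, and their median limma log2 change was 0.51. The group was made by symbol and so counts Slc4a1ap, Slc9a3r1 and Slc9a3r2, whose products are not carriers themselves. Slc26a2, the sulfate carrier needed for sulfation of cartilage proteoglycans, had 717, 1451 and 1798 normalised reads in RA, against 294, 578 and 550.1 untreated (limma log2 change 1.42, adjusted p 0.0027). Slc26a10, whose reads may belong in part to the overlapping B4galnt1, had 126, 109 and 91.6 normalised reads in RA, against 24.8, 45.2 and 25.8 untreated (limma log2 change 1.53). The bicarbonate carriers Slc4a8, with 228, 324 and 361 normalised reads in RA, against 127, 212 and 151 untreated, and Slc4a9, with 66.3, 25.1 and 33.8 normalised reads in RA, against 17.4, 11.7 and 8.05 untreated, rose by limma log2 changes of 0.86 and 1.15. Slc4a11, of the same family, fell, with 142, 107 and 123 normalised reads in RA, against 330.0, 181 and 236 untreated (limma log2 change -0.92). The Slc4 family thus held genes of both directions, as did the Slc1, Slc6, Slc7, Slc17 and Slc25 families.

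Among the monocarboxylate carriers Slc16a3, the lactate exporter of glycolytic cells, fell, with 1009.6, 869 and 719.8 normalised reads in RA, against 1471, 1722 and 2161 untreated (limma log2 change -1.03, adjusted p 0.024), though the overlapping Csnk1d may share its reads. The widespread lactate carrier Slc16a1 did not pass the test, with 681, 1452 and 1564 normalised reads in RA, against 1249, 1679.8 and 1604 untreated (adjusted p 0.38). Slc20a2, the second phosphate carrier of its family, had 2053, 1843 and 1923 normalised reads in RA, against 1926, 2235 and 2299 untreated, and did not pass the test (limma log2 change -0.15, adjusted p 0.73). Of 4 vesicular and organic anion carriers, Slc17a7, which fills synaptic vesicles with glutamate, rose while Slc17a9 fell; Slc17a7 had 104, 47.2 and 66.1 normalised reads in RA, against 6.62, 20.9 and 8.86 untreated (limma log2 change 1.89, adjusted p 0.0038). Slc16a3, Slc17a7 and Slc17a9 each kept their direction in all 3 lines.

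In the hexose group of 7 genes, Slc45a3 rose, with 209, 125 and 99.1 normalised reads in RA, against 46.3, 59.4 and 40.3 untreated (limma log2 change 1.34), and Slc5a1, the sodium-coupled glucose carrier of the gut, fell, with 49.5, 31.1 and 30.8 normalised reads in RA, against 93.5, 78.7 and 93.4 untreated (limma log2 change -1.08). Of 7 iron, copper, heme and magnesium carriers, the magnesium family member Slc41a3 and the heme carrier Slc48a1, which overlaps Hdac7, rose. Slc41a3 had 58.4, 35.2 and 60.05 normalised reads in RA, against 8.27, 15.9 and 6.44 untreated, and Slc48a1 had 615, 387 and 458 normalised reads in RA, against 171, 292 and 218 untreated. Of 13 vitamin, choline and osmolyte carriers, Slc46a1, the proton-coupled folate carrier, rose, with 1205, 491 and 719.8 normalised reads in RA, against 433, 347 and 380.2 untreated. Slc23a1, a vitamin C carrier, fell, with 10.9, 39.2 and 12.01 normalised reads in RA, against 75.3, 71.98 and 149 untreated, but it overlaps Paip2. Of 5 nucleoside carriers Slc28a1, which takes up pyrimidine nucleosides, fell, with 285, 179 and 64.6 normalised reads in RA, against 443, 369 and 424 untreated (limma log2 change -1.39, adjusted p 0.017).

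Of the 4 fatty acid carriers Slc27a3 rose, with 250.4, 214 and 271 normalised reads in RA, against 110.0, 138 and 114 untreated, and of the 5 sugar phosphate and acetyl-CoA carriers Slc37a2 rose, with 327, 330.5 and 307 normalised reads in RA, against 189, 155 and 159 untreated. The 18 zinc carriers held 1 gene that fell, Slc39a14, which also takes up iron, with 532, 500.2 and 883 normalised reads in RA, against 1106, 967 and 1378 untreated (limma log2 change -0.87, adjusted p 0.036), and none that rose in the limma fit. No gene passed the test among 7 cation chloride cotransporters, 5 nucleotide sugar carriers, 3 peptide carriers and 2 sodium calcium exchangers. Of the cation chloride cotransporters the largest difference was that of Slc12a2, which imports chloride, with 309.8, 1118 and 688 normalised reads in RA, against 1321, 1147 and 1348 untreated (limma log2 change -1.02, adjusted p 0.06). Group medians ran between -0.47 for the nucleoside carriers and 0.51 for the bicarbonate, proton and anion exchangers.

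**Figure D3:**
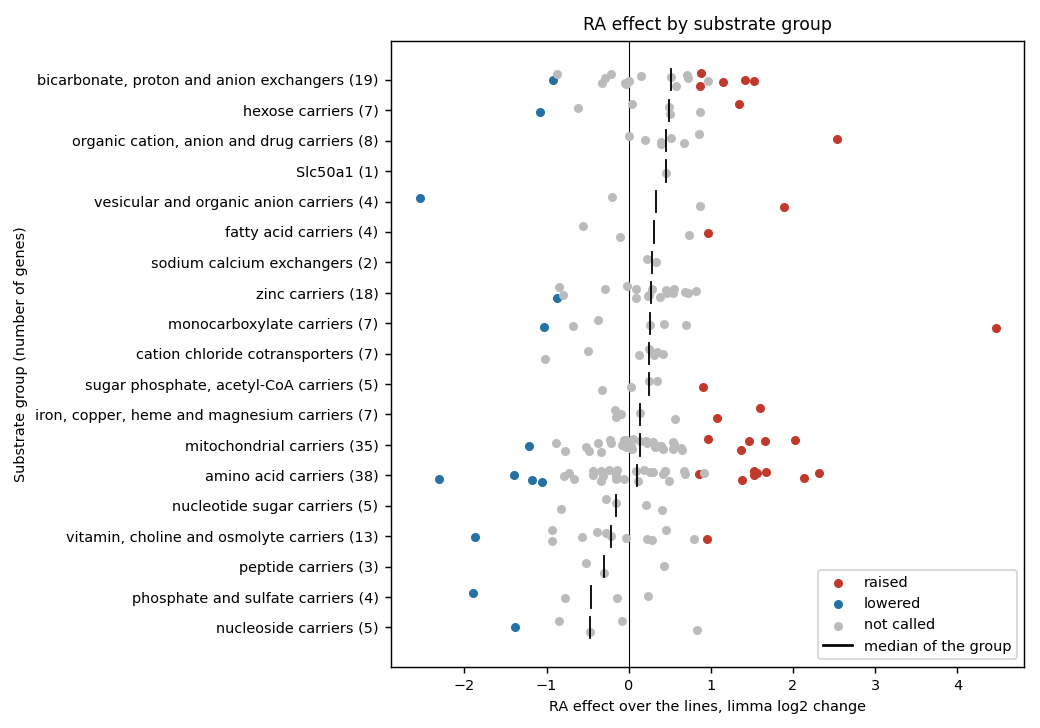
RA effect of the 192 genes by substrate group, as the limma log2 change over the lines, with genes that rose in red, that fell in blue and that did not pass the test in grey, and a black bar at the group's median. Most of the 192 genes lie between -1 and 1, and genes of both colours stand among the amino acid, bicarbonate, mitochondrial, hexose, vitamin, and vesicular carriers.

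Of 44 other membrane transport genes tested, Slc2a1 and Slc2a3 among them, 5 rose and 2 fell, with a median limma log2 change of 0.12. These counts lay near the shares of all genes tested, of which 10.8% rose and 4.63% fell. Abcg4, a sterol exporter of the ABC family, had 202, 122 and 180.1 normalised reads in RA, against 4.14, 17.6 and 10.5 untreated (limma log2 change 3.13, adjusted p 0.0001). Slco2a1, a prostaglandin carrier, had 350.4, 145 and 299 normalised reads in RA, against 71.96, 33.5 and 53.96 untreated (limma log2 change 2.08, adjusted p 0.00041). The glucose transporters that the rule left out did not pass the test, with 7919, 5939 and 6721 normalised reads in RA, against 6635, 7355 and 8134 untreated for Slc2a1 (adjusted p 0.81) and 25315, 24554 and 19089 normalised reads in RA, against 20301, 28921 and 26110.5 untreated for Slc2a3 (adjusted p 0.79). Of 20 genes that cells switch on when amino acids are short, Atf3 and Atf5 rose and none fell, again near the shares of all genes tested. Asns, which makes asparagine, had 13294, 10611 and 10576 normalised reads in RA, against 9849.6, 9599 and 8856 untreated (adjusted p 0.49).

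Line by line, fewer carrier genes reached a 2-fold difference with RA in shRxr cells than in shCtbp2 or shGFP cells. With 1 library on each side these are differences of size, with no replicate check. In shCtbp2 cells 35 carrier genes were at least 2-fold higher with RA, 18.2% against 15.1% of all genes, and 30 were at least 2-fold lower, 15.6% against 19.3%. In shRxr cells 14 were at least 2-fold higher, 7.29% against 5.26% of all genes, and 7 lower, 3.65% against 1.46%. In shGFP cells 34 were at least 2-fold higher, 17.7% against 13.4% of all genes, and 13 lower, 6.77% against 7.07%. Genes at least 2-fold higher in every line numbered 11, 5.73% against 3.76% of all genes, and genes at least 2-fold lower in every line 3 (Slc6a15, Slc20a1 and Slc17a9), 1.56% against 0.933% of all genes. No carrier gene was at least 2-fold higher with RA in one line and 2-fold lower in another, and only 14 of all 12332 genes tested were. Of the 40 genes that passed the limma test, the change was larger in shGFP than in shRxr cells in 38 and larger than in shCtbp2 cells in 25. Of the 1898 genes called among all genes tested, the same held for 1800 and 900. Among the 27 genes that rose the median log2 change was 1.56 in shCtbp2, 0.95 in shRxr and 1.51 in shGFP cells. Among the 13 that fell it was -1.22 in shCtbp2, -0.98 in shRxr and -1.57 in shGFP cells.

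In shCtbp2 cells 22 genes were at least 2-fold lower with RA and under 2-fold in the other lines, 11.5% of the carrier genes against 13.9% of all genes. They include Slc38a2, the chloride cotransporter Slc12a2, the vitamin C carrier Slc23a2, the choline carrier Slc44a1, the inositol carrier Slc5a3, and the zinc carriers Slc30a1, Slc30a7, Slc39a10 and Slc39a14. The median GC content of their transcripts was 44.7%, against 52.1% for all 192 genes. Another 13 were at least 2-fold higher with RA in shCtbp2 cells alone, 6.77% against 5.87% of all genes, with a median GC content of 56.4%. Over 191 genes the RA change in shCtbp2 cells ran with GC content (Pearson r 0.49, Spearman rho 0.50), as it did over 12133 genes tested (r 0.58, rho 0.62). In shGFP cells r was 0.14 and rho 0.20 over the carrier genes, and in shRxr cells r was -0.09 and rho -0.05. These are correlations across genes of the same libraries and not across samples. Of 39 carrier genes under 45% GC, 15 were at least 2-fold lower with RA in shCtbp2 cells, against 1 of 59 genes at 55% or more. Over all genes tested these counts were 1365 of 2948 and 58 of 2930. The part of GC content in the changes was not tested. After a correction for GC content and transcript length, 9 of the 21 genes lower in shCtbp2 cells alone that have a GC value, and 3 of the 13 higher there, were still at least 2-fold changed in shCtbp2 cells. Corrected log2 changes in shCtbp2 cells were -0.05 for Slc30a7, -0.60 for Slc44a1, -0.60 for Slc38a2, -0.65 for Slc30a1 and -0.78 for Slc5a3, all short of 2-fold. The same correction left 38 of the 40 RA calls in place, with that of Slc27a3 among those lost, and gave 33 genes higher and 24 lower.

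**Figure D4:**
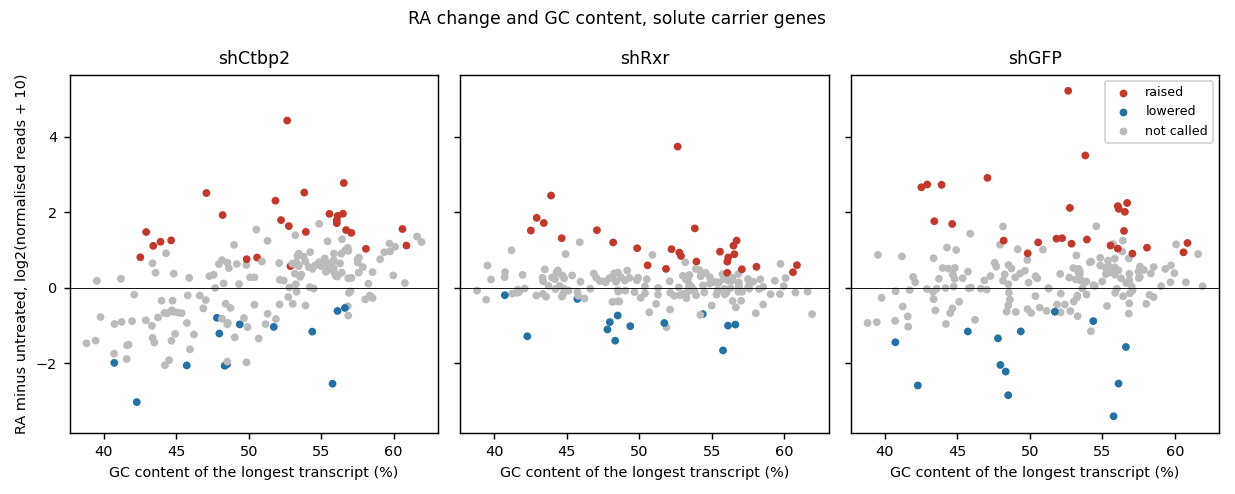
RA change of each carrier gene, as RA minus untreated in log2(normalised reads + 10), against the GC content of its longest transcript, for shCtbp2, shRxr and shGFP cells. In shCtbp2 cells the points climb with GC content, while in shRxr cells most lie near 0 with no such slope; genes that rose in the limma fit are red and genes that fell blue.

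Between lines, shCtbp2 cells differed from shGFP cells in more carrier genes with RA than without. Untreated, 1 gene, Slc13a5, was at least 2-fold higher in shCtbp2, 0.521% against 1.39% of all genes, and 9 were at least 2-fold lower, 4.69% against 2.34%. With RA, 10 were higher, 5.21% against 3.18% of all genes, and 35 lower, 18.2% against 14.8%. Over both treatments, the limma fit called 0 carrier genes higher (0.105% of all genes) and 0 lower (0.0405%), with 31 of 192 at an unadjusted p under 0.05 (1091 of all 12332 genes), and limma on voom weights of the whole reads also called 0. Without shRxr_RA, or without shRxr_UT, genes called lower in shCtbp2 cells were Slc1a6, Slc7a8, Slc4a4, Slc9a5, Slc16a14, Slc22a23 and Slc39a8. Those fits had 1 residual degree of freedom and an infinite prior, so the variance of a gene came from the trend over all genes. Without shCtbp2_UT the shCtbp2 effect rested on the shCtbp2_RA library alone, so its calls are not counted here. Scaling to equal upper quartiles called 2 lower, Slc4a4 and Slc9a5. The share of all genes called is not given for these alternative fits.

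At least 2-fold lower in shCtbp2 than in shGFP cells at both treatments, in log2(normalised reads + 10), were 6 genes, 3.12% against 1.26% of all genes: Slc4a4, Slc9a5, Slc7a8, Slc16a14, Slc1a6 and Slc39a8. Slc4a4, the electrogenic sodium bicarbonate carrier, had 9.90 normalised reads in shCtbp2 against 90.8 in shGFP cells with RA, and 6.62 in shCtbp2 against 27.4 in shGFP cells untreated. With RA it was 9.18-fold (95% counting interval 4.82 to 19.6) lower in shCtbp2, and the limma effect over both treatments was -1.76 (adjusted p 0.11). Slc9a5, a sodium/proton exchanger best known from brain, had 51.5 normalised reads in shCtbp2 against 212 in shGFP cells with RA, and 28.95 in shCtbp2 against 89.4 in shGFP cells untreated (limma effect -1.60, adjusted p 0.11). Slc7a8 had 28.7 normalised reads in shCtbp2 against 117 in shGFP cells with RA, and 2.48 in shCtbp2 against 19.3 in shGFP cells untreated. Slc16a14, an orphan of the monocarboxylate family, had 20.8 normalised reads in shCtbp2 against 78.8 in shGFP cells with RA, and 9.93 in shCtbp2 against 33.8 in shGFP cells untreated. The glutamate carrier Slc1a6 had 14.8 normalised reads in shCtbp2 against 53.3 in shGFP cells with RA, and 3.31 in shCtbp2 against 22.6 in shGFP cells untreated. The zinc and manganese carrier Slc39a8 had 7.92 normalised reads in shCtbp2 against 48.04 in shGFP cells with RA, and 5.79 in shCtbp2 against 21.7 in shGFP cells untreated. In each of these genes except Slc7a8, both shRxr libraries stood above both shCtbp2 libraries. Apart from Slc9a5, the untreated shCtbp2 levels of these genes were under 10 normalised reads. Untreated, Slc7a8 was 7.79-fold (95% counting interval 2.37 to 40.4) and Slc1a6 6.82-fold (95% counting interval 2.38 to 26.7) lower in shCtbp2. After the correction for GC content and transcript length Slc39a8 fell short of 2-fold untreated (log2 difference -0.98), and the others did not.

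Higher in shCtbp2 than in shGFP cells at both treatments, though not at 2-fold in each in log2(normalised reads + 10), were, with the largest differences, Slc39a11, Slc13a5, Slc44a3, Slc4a9, Slc1a1 and Slc17a9. The zinc carrier Slc39a11, which overlaps Cog1, had 564 normalised reads in shCtbp2 against 208 in shGFP cells with RA, and 344 in shCtbp2 against 184 in shGFP cells untreated (limma effect 1.13, adjusted p 0.22). The citrate carrier Slc13a5 had 72.3 normalised reads in shCtbp2 against 34.5 in shGFP cells with RA, and 136 in shCtbp2 against 50.7 in shGFP cells untreated (limma effect 1.08, adjusted p 0.33). Without the added 10 reads Slc13a5 was 2.09-fold higher with RA and 2.69-fold higher untreated. Slc44a3, a choline-transporter-like gene, had 150.4 normalised reads in shCtbp2 against 90.1 in shGFP cells with RA, and 75.3 in shCtbp2 against 37.9 in shGFP cells untreated. Slc1a1 and Slc17a9, which RA lowered, were also higher in shCtbp2 than in shGFP cells with RA: Slc1a1 was 2.94-fold (95% counting interval 2.41 to 3.59) and Slc17a9 3.18-fold (95% counting interval 2.17 to 4.74) higher in shCtbp2_RA than in shGFP_RA. All of these genes missed the threshold of the test over both treatments.

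shRxr cells differed little from shGFP cells when untreated. Untreated, 0 genes were at least 2-fold higher in shRxr, against 0.389% of all genes, and 1 was lower, Slc1a3, 0.521% against 0.0649% of all genes. With RA, 8 were higher, 4.17% against 3.74% of all genes, and 9 lower, 4.69% against 2.62%. The limma fit over both treatments called 0 higher (0% of all genes) and 0 lower (0.00811%), with 2 of 192 at an unadjusted p under 0.05 (152 of all 12332 genes), and limma on voom weights also called 0. Slc15a1, the peptide carrier of the gut, stood out among the genes higher in shRxr, with 431 normalised reads in shRxr against 138 in shGFP cells with RA, and 386 in shRxr against 219.9 in shGFP cells untreated. It was 3.12-fold (95% counting interval 2.62 to 3.73) higher in shRxr_RA and 1.75-fold (95% counting interval 1.51 to 2.05) higher in shRxr_UT. Slc29a1, which equilibrates nucleosides, had 1282 normalised reads in shRxr against 788 in shGFP cells with RA, and 1459.7 in shRxr against 1107 in shGFP cells untreated. Lower in shRxr at both treatments were the iron exporter Slc40a1, with 49.2 normalised reads in shRxr against 88.6 in shGFP cells with RA, and 36.8 in shRxr against 70.9 in shGFP cells untreated, and the glutamine carrier Slc38a3, with 14.1 normalised reads in shRxr against 42.8 in shGFP cells with RA, and 23.4 in shRxr against 37.05 in shGFP cells untreated. Every difference named here has 1 library a side, and no gene passed the test.

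**Figure D5:**
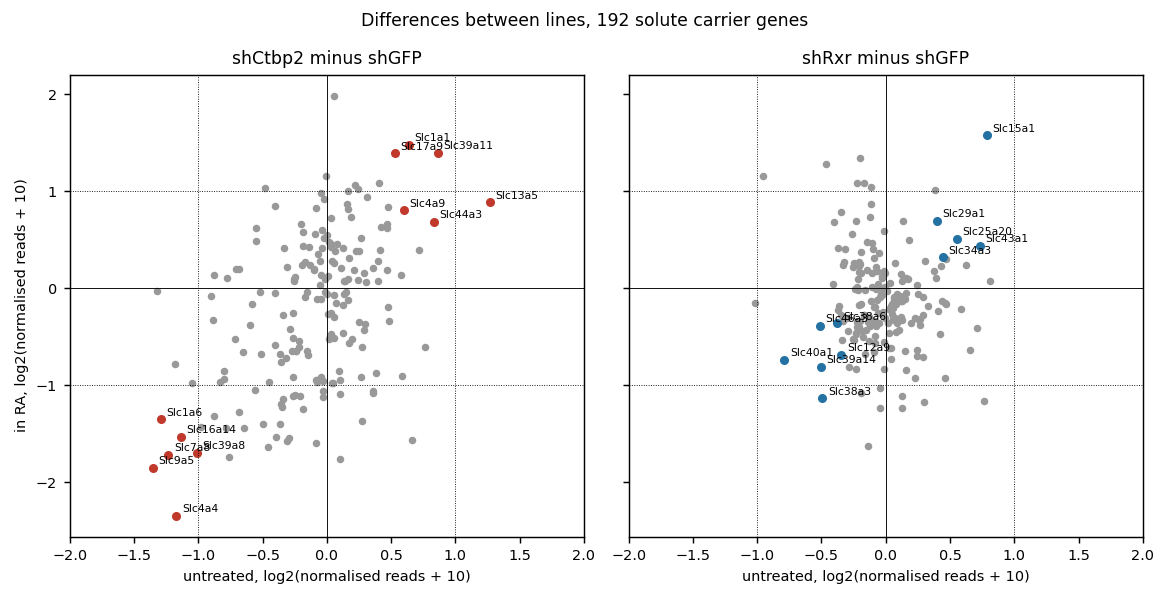
Differences between lines for the 192 genes, in log2(normalised reads + 10), untreated on the x axis and in RA on the y axis, for shCtbp2 minus shGFP (left) and shRxr minus shGFP (right). Dotted lines mark 2-fold, and coloured points carry the names of genes among those with the largest differences in the same direction at both treatments. The shCtbp2 points reach the lower left corner with 6 genes, from Slc4a4 to Slc1a6, while no shRxr point lies beyond 2-fold at both treatments.

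The RA response itself, as the log2 change with RA in a knock-down line minus that in shGFP, was lower by 1 or more in shCtbp2 cells for 23 carrier genes, 12% against 12.4% of all genes, and higher for 9, 4.69% against 2.72%. In shRxr cells it was lower by 1 or more for 10 genes, 5.21% against 4.47%, and higher for 8, 4.17% against 5.6%. Both sets share the shGFP libraries, and neither difference has a replicate check. A difference below 0 is a weaker rise or a stronger fall than in shGFP. For genes with a mean of at least 50, the lowest values in shCtbp2 included -1.86 for Slc25a24, -1.51 for Slc7a2, -1.49 for Slc23a2 and -1.45 for Slc44a1. With GC content and length corrected for, these were -1.42 for Slc25a24, -0.83 for Slc7a2, -0.94 for Slc23a2 and -0.97 for Slc44a1, so that all but Slc25a24 fell short of 1 in size. For Slc25a24 and Slc7a2 these are weaker rises. Slc23a2 had 617, 1203 and 1166 normalised reads in RA, against 2430.2, 1551 and 1618 untreated, and Slc44a1 had 619.6, 1219 and 1325 normalised reads in RA, against 1786, 1322 and 1387 untreated. In both of these genes the shCtbp2_RA library was the lowest of the 6 and shCtbp2_UT the highest.

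The highest differences in RA response of shCtbp2 cells were 1.93 for Slc28a1, 1.29 for Slc47a1, an exporter of organic cations, 1.25 for Slc12a8, 1.17 for Slc5a11 and 1.03 for Slc16a3. Slc47a1 had 106, 97.4 and 108 normalised reads in RA, against 29.8, 82.02 and 89.4 untreated, so that the shCtbp2 line began lower and reached the level of the others. Slc12a8 was highest in shCtbp2_RA, with 166, 64.3 and 87.8 normalised reads in RA, against 64.5, 74.5 and 88.6 untreated. Slc5a11, a sodium-coupled inositol carrier, had 250.4, 127 and 107 normalised reads in RA, against 248, 215 and 249.7 untreated, and the shCtbp2 libraries lay nearly level. After the correction the difference was 0.75 for Slc5a11 and 0.76 for Slc16a3, below 1, and still above 1 for Slc28a1, Slc47a1 and Slc12a8. Slc28a1 and Slc16a3 fell over the lines, and in the uncorrected values their difference with RA was smallest in shCtbp2 cells. In the corrected values it was smallest in shRxr cells. There the log2 change with RA was -1.01 for Slc28a1 and -1.025 for Slc16a3, against -1.34 and -1.20 in shCtbp2 cells.

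In shRxr cells the lowest differences in RA response included -1.93 for Slc22a23, -1.39 for Slc43a3, -1.36 for Slc18a1 and -1.15 for Slc25a24. Slc22a23 and Slc43a3 are among the genes with the strongest rise over the lines, and their difference with RA was smallest in shRxr cells. Slc18a1, a vesicular carrier of amines that overlaps Atp6v1b2, had 50.5, 45.2 and 120.1 normalised reads in RA, against 26.5, 35.99 and 32.2 untreated, and did not pass the RA test. The highest differences were 2.12 for Slc23a1, 1.75 for Slc17a9, 1.54 for Slc28a1, 1.30 for Slc6a15 and 1.25 for Slc25a36, all genes that fell with RA. After that correction the differences were 0.91 for Slc6a15 and 0.61 for Slc25a36. In the uncorrected values their difference with RA was smallest in shRxr cells, or, for Slc28a1, smaller than in shGFP cells. The median difference was -0.19 over the carrier genes and -0.09 over all genes in shRxr, and -0.13 over both in shCtbp2 cells.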

How the data were processed

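RNA of mouse F9 cells was made into libraries with an Illumina TruSeq RNA kit, per the labels' protocols. TopHat 1.4, HTSeq and the build mm9 are listed in the submitters' processing notes; the sources used here do not give the counting mode, the strand setting or the annotation release. The authors deposited log2 values, read from the values as log2 of 1 plus reads scaled to 10000000 reads counted in genes. Whole reads came back for 100% of values within 1e-06 of a read, and 0 value columns were left over.

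Levels are the unlogged values, called normalised reads. The RA, shCtbp2 and shRxr effects came from limma 3.58.1 (R 4.3.3) with a trend, on log2(value + 10), on all 6 libraries with a term for line and a term for treatment, Benjamini-Hochberg adjustment over 12332 genes with a mean of at least 20, and a threshold of 0.05. The fit had 2 residual and 11.2 prior degrees of freedom, and lines that respond unequally to RA add to its residual. A pseudocount of 10 understates the change of low genes. Between 2 libraries, folds carry 95% Clopper-Pearson intervals of the reads, which cover counting error only, and counts at 2-fold use a log2 difference of 1. Lengths and GC content are those of the longest GENCODE M21 transcript, known for 98.4% of genes tested. Genes that overlap another gene with at least 10% of their mean level numbered 27, and reads of such genes cannot be told apart without the strand setting. The fitting steps were tested on simulated data. Tables and intervals were made with pandas 2.3.3 and scipy 1.17.1 (numpy 2.4.6) under Python 3.11.15, and plots with matplotlib 3.10.9.

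The carrier genes, the substrate groups and the other lists were chosen with earlier results of these data known. Genes were named by a rule: the 10 highest and 10 lowest RA changes among those called, the 6 highest and 6 lowest differences of each knock-down line in the same direction at both treatments, the 5 most positive and 5 most negative differences in RA response at a mean of at least 50, the 10 highest per kilobase, the largest RA change of each substrate group, genes next to the minimum, and Slc3a2 with its light chains. Other carrier genes named, such as the rest of those called, their relatives, and Slc38a2, were chosen after their values were seen. Some genes that the rule picks are not reported here; they stay in all counts.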

Additional observations from a re-analysis of the deposited data

How the results depend on the processing

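With 1 library per group and 2 residual degrees of freedom, the counts of genes called depended on the setting, while none of the genes called for RA and picked by the naming rule reversed its direction: of these genes' alternative values 374 stayed on the same side of the threshold and 125 lost it. Of 38 genes picked by the rule but not called, 14 changed sign under at least 1 alternative, among them 7 with the GC content and length correction, such as Slc7a5 (0.29 as deposited, -0.06 corrected) and Slc40a1 (-0.09 and 0.32). RA raised 27 carrier genes and lowered 13; with a mean of at least 100 it raised 9 and lowered 7. Leaving out 1 library at a time gave 6 to 33 raised and 3 to 25 lowered; where a group was then empty, its line added nothing to the RA effect. Without the shCtbp2 line 11 rose and 7 fell, without the shGFP line 6 and 3, and without the shRxr line 25 fell. Median-of-ratios scaling lowered 21 and the GC content and length correction 24; their causes were not tested. The shCtbp2 effect, 0 in each direction, became 2 lowered with equal upper quartiles, and its calls also depended on which library was left out.

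The counts at 2-fold moved mostly with the pseudocount, which shrinks the change of low genes. With 50, RA gave 18 higher in shCtbp2, 9 higher and 4 lower in shRxr, and 20 higher in shGFP. With 50, shCtbp2 against shGFP gave 0 higher and 0 lower untreated and 5 higher and 19 lower in RA, and shRxr against shGFP gave 0 lower untreated and 2 higher and 1 lower in RA. With 50, the RA response differed upward in 3 and downward in 13 for shCtbp2, and upward in 5 and downward in 3 for shRxr. With a pseudocount of 1, shCtbp2 untreated gave 2 higher and 14 lower, shRxr untreated 2 higher and 2 lower, and the shCtbp2 RA response 16 upward. With equal upper quartiles the shCtbp2 RA response differed upward in 17 and downward in 15. With the GC content and length correction, shCtbp2 in RA gave 4 higher, shRxr in RA 5 higher, shRxr untreated 0 lower, the shCtbp2 RA response 5 upward and 10 downward, and the shRxr RA response 4 upward; these causes were not tested.

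The fit has line and treatment as terms, so RA and untreated libraries were compared within each line. No paired analysis was possible by replicate number because each group has 1 library. Depth limits the genes near the minimum, where 1 library can hold fewer than 10 reads of a gene.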
